A study of Zea mays with 6 samples.

Results

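Genes of brassinosteroid synthesis and signalling were examined in young maize ears. They were chosen by annotation, with earlier results of these data known. A gene entered if the name of its best Swiss-Prot match contained any of a set of words. These were brassinosteroid, brassinazole, BZR1, the BSK kinase name, the P450 families CYP90, CYP85A and CYP724, and steroid. Of 42508 genes in the count table, 67 met this rule. By their names, 49 of the 67 belong to the synthesis, perception or signalling of brassinosteroids or to the sterol steps before them. The other 18 carry a steroid or brassinazole word without being a core enzyme, receptor or factor of the pathway. The table names maize genes only by identifier, so each protein name below is a similarity annotation, mostly to rice or Arabidopsis, and the 67 genes share 33 different matches.

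Brassinosteroids are steroid hormones of plants that drive cell elongation and take part in cell division and organ formation. They are made from sterols by the reductase DET2 and a chain of cytochrome P450 enzymes, and they bind the extracellular part of the receptor kinase BRI1 or its relatives. The signal passes through BSK kinases, relieves the block that GSK3-type kinases place on BZR1-type transcription factors, and so changes gene expression. In grasses, mutants in this pathway are dwarfed and altered in leaf angle and in the inflorescence.

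RNA with a poly(A) tail was sequenced from immature ears of A12 and of B46, both nearly isogenic recombinant inbred lines from a cross of teosinte with maize. A12 carries the teosinte version of qKRN5.04b, a chromosome 5 locus for kernel row number, and B46 carries the maize version. All plants grew under standard conditions, and ear primordia of 1.5 to 2.0 mm were dissected at the V6 to V9 leaf stages. Each line has 3 libraries, each pooled from 50 or more separately grown plants, in a single stated batch. Each version of the locus is represented by a single line, so an effect of the locus and of any other difference between the lines cannot be told apart.

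Libraries held 14625831 to 15675012 gene counts in A12 and 15145371 to 15432882 in B46, and the 67 genes took 29678 to 31558 counts in A12 and 29998 to 31460 in B46. The labelled cell types, inflorescence meristem and paired spikelet meristem (IM,SPM), were checked by marker genes. KNOTTED 1 (Zm00004b005000), which maintains meristems, averaged 68.4 FPKM over the 6 libraries (a level per gene length and library size). The 25 meristem markers summed to 1103 to 1691 CPM in A12 and 1213 to 1520 CPM in B46 (counts per 1e6 after TMM scaling), and 5 of them had no reads. Of the 13 meristem markers tested, 2 rose and 0 fell by edgeR (4 at an unadjusted p under 0.05). KNOTTED 1 was not called. The 66 MADS-box genes, markers of floral stage, summed to 1882 to 2473 CPM in A12 and 1543 to 1827 CPM in B46. Of the 41 MADS-box genes tested, 16 rose and 5 fell by edgeR, and 14 of the 66 had no reads. These are larger shares than over all genes tested, of which 4.61% were called higher and 5.25% lower in A12. The 66 genes of green tissue summed to 128 to 678 CPM in A12, highest in replicate 1 and lowest in replicate 2, and to 183 to 272 CPM in B46. Of the 39 tested, 1 rose and 0 fell by edgeR (6 at an unadjusted p under 0.05), and 11 of the 66 had no reads. The part that floral stage or green tissue has in the results below was not tested.

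Of the 67 genes, 41 passed the filter on low counts and were tested, 14 had no reads in any library, and 12 had reads below the filter, at most 91 in all. Gene models without reads were shorter (median 1208.5 bases) than those tested (1868 bases). Among the tested genes the level per length spanned 0.281 FPKM for the receptor BRL1 to 129 FPKM for a membrane steroid-binding protein (means of 6 libraries).

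**Figure D1:**
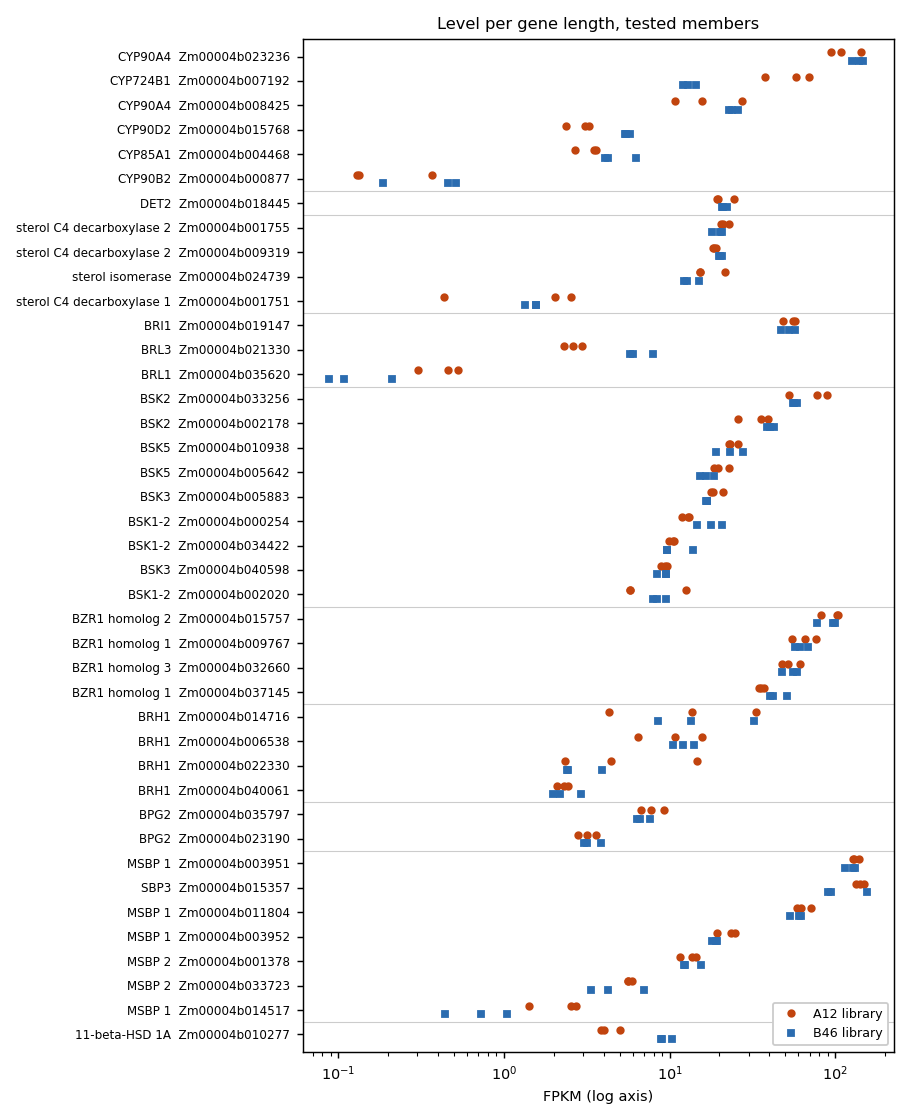
Level per gene length of each of the 41 tested genes, in FPKM on a log axis, with 1 point per library (circles for A12, squares for B46) and grey lines between roles. In each of the 4 genes called by the test, CYP724B1, CYP90D2, BRL3 and the 11-beta-hydroxysteroid dehydrogenase, the circles and squares do not overlap.

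In A12, 1 of the annotated genes rose and 3 fell (edgeR quasi-likelihood test, adjusted p under 0.05, with the values below). The riser encodes the synthesis enzyme CYP724B1, 4.21-fold higher in A12. The genes that fell encode the synthesis enzyme CYP90D2, the receptor BRL3 and an 11-beta-hydroxysteroid dehydrogenase. On the brassinosteroid side 1 rose and 2 fell of 31 tested, and the dehydrogenase is 1 of 10 tested with other steroid names. Together these are 4 of 41 genes tested, while 9.86% of all 22741 genes tested were called, 4.61% higher and 5.25% lower in A12. The share among the 41 is near this background. The lines did not overlap in 13 of the 41, against 33.4% of all genes tested. The median log2 fold change (A12 minus B46) of the 41 was 0.03, against 0.01 over all genes tested, with 21 above 0 and 20 below. At an unadjusted p under 0.05 there were 11 of the 41, against 27.2% of all genes tested. DESeq2 called 6 of the 41 (15.4% of all genes it tested). Of its added calls, Zm00004b014517 passed the filter on low counts only through A12. limma on FPKM also tested 41 of the 67, not all of them the same genes, and called 5 (8.49% of all genes it tested). Its added call was Zm00004b015942, which was outside the edgeR test and entered limma only through A12. In pooled tissue, fewer cells of a type and less RNA per cell cannot be told apart. The count depended on single libraries: it was 9 without A12 replicate 1, when 19.3% of all genes were called, and 2 without A12 replicate 3, when 1.73% were.

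**Figure D2:**
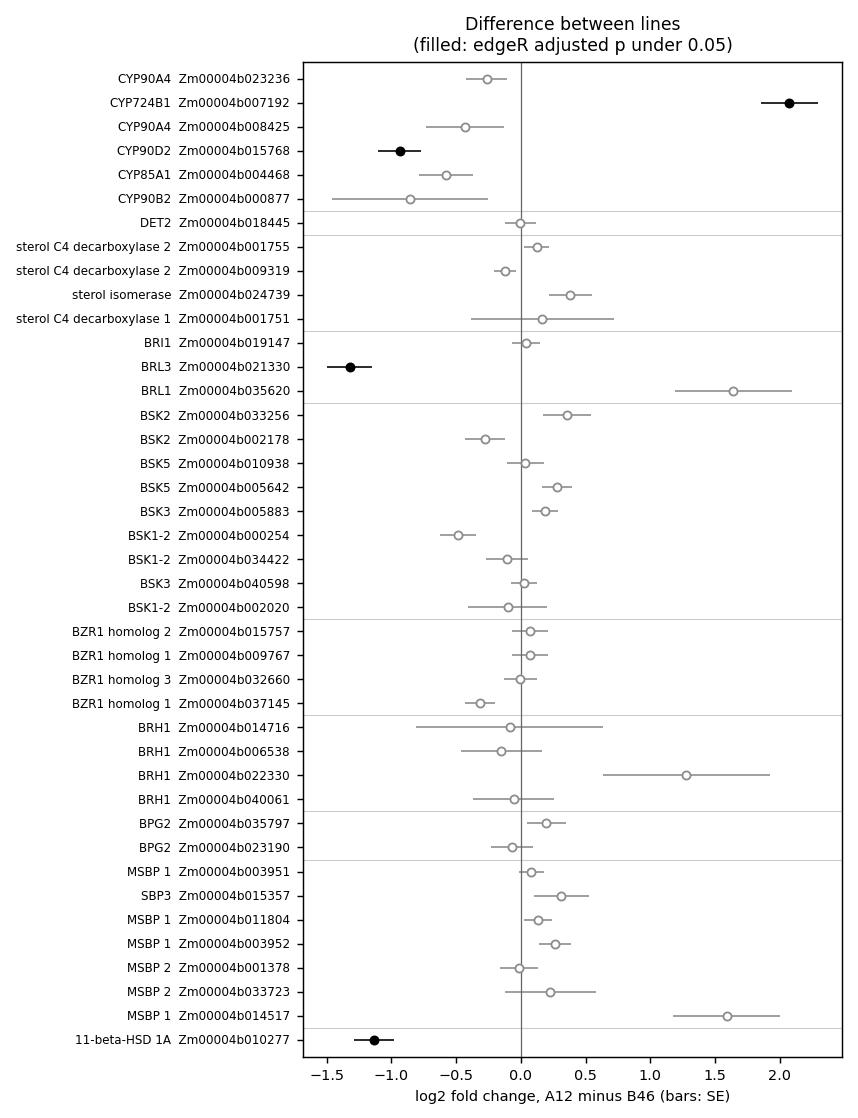
Log2 fold change between lines (A12 minus B46, bars are SE) of the 41 tested genes in order of their role. The 4 filled points are called, CYP724B1 at 2.07 and 3 genes between -0.94 and -1.32; the other 37 are open.

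The synthesis P450s carry out the oxidations that turn sterols into active hormone. Of 11 genes with these names, 6 were tested, and 1 rose, 1 fell and 4 were not called. By domain annotation, 9 of the 11 hold a cytochrome P450 domain and 2 hold no domain. The 3 genes without reads are annotated as CYP85A1 (Zm00004b010126 and Zm00004b039686) and CYP90B2 (Zm00004b012295).

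CYP724B1 (Zm00004b007192, chromosome 2, 40738208 to 40741734, minus strand) is related to the rice enzyme that hydroxylates the steroid side chain, an early step. It had 1011, 1826 and 1647 reads in A12 replicates 1, 2 and 3, against 403, 369 and 341 in B46. All A12 libraries lay above all B46 libraries, and A12 replicate 1 was the lowest of its line. The means were 101 ± 29.5 CPM in A12 and 23.98 ± 2.21 CPM in B46 (SD, n = 3; log2 fold change 2.07, SE 0.22, adjusted p = 0.0035 by edgeR). The call held in each of 14 alternative analyses, with log2 fold changes of 1.87 to 2.29. Its counterpart in rice for the same step is CYP90B2. The gene with that name, Zm00004b000877 on chromosome 1, had only 4, 4 and 12 reads in A12 and 6, 17 and 15 in B46 (log2 fold change -0.86, SE 0.60, adjusted p = 0.40 by edgeR). On the per-length scale CYP90B2 averaged 0.210 ± 0.137 FPKM in A12 and 0.388 ± 0.176 FPKM in B46, against 55.0 ± 16.0 and 13.1 ± 1.21 FPKM for CYP724B1.

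CYP90D2 (Zm00004b015768, chromosome 3, 5437175 to 5443910, minus strand) is related to a rice enzyme of the later oxidation steps, whose loss causes dwarfing. Its reads numbered 117, 110 and 90 in A12 and 203, 211 and 222 in B46. The lines did not overlap, and both varied little. It averaged 7.16 ± 1.15 CPM in A12 and 13.7 ± 0.566 CPM in B46 (SD, n = 3), and fell by 0.94 on the log2 scale (SE 0.16, adjusted p = 0.016 by edgeR). The call was lost without A12 replicate 3, B46 replicate 1 or B46 replicate 2 (edgeR adjusted p = 0.070, 0.063 and 0.082), and with the replicate number as a block (adjusted p = 0.057). The other gene of that name, Zm00004b030252 on chromosome 6, had 1, 0 and 1 reads in A12 and 0, 3 and 14 in B46 and was not tested.

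The 2 genes annotated as CYP90A4, which is related to the Arabidopsis enzyme CPD, together made up most of the synthesis P450 level in FPKM. Zm00004b023236 (chromosome 4) had 261, 173 and 200 CPM in A12 against 272, 257 and 232 CPM in B46 (log2 fold change -0.26, SE 0.16, adjusted p = 0.33 by edgeR). Zm00004b008425 (chromosome 2) had 49.4, 19.3 and 28.2 CPM in A12 against 42.9, 46.4 and 41.1 CPM in B46 (log2 fold change -0.43, SE 0.30, adjusted p = 0.40 by edgeR). In both, A12 replicate 1 lay within or above the B46 values and the other two A12 libraries lay below them. Without A12 replicate 1 both were called lower, with log2 fold changes of -0.44 and -0.87 (edgeR adjusted p = 0.026 and 0.012). In that fit 19.3% of all genes tested were called. Without A12 replicate 2 the log2 fold changes were -0.14 and -0.17 (edgeR adjusted p = 0.59 and 0.68). Without A12 replicate 3 they were -0.22 and -0.34 (edgeR adjusted p = 0.58 and 0.66).

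CYP85A1, the oxidase of the last steps, is the name of 4 genes, and 1 of them was tested. Zm00004b004468 (chromosome 1) had 143, 187 and 198 reads in A12 and 228, 243 and 354 in B46, without overlap (log2 fold change -0.58, SE 0.21, adjusted p = 0.12 by edgeR). Its model, 3632 bases long, also holds a carbohydrate kinase domain, so its reads may include those of another gene. Zm00004b023169 had 1, 3 and 3 reads in A12 and 2, 1 and 0 in B46.

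Summed FPKM of the synthesis P450s were 214, 181 and 189 in A12 and 196, 189 and 174 in B46. These sums overlapped, while their make-up differed. CYP724B1 took 17.6%, 38.2% and 30.7% of the sum in A12 replicates 1, 2 and 3, against 7.34%, 6.80% and 6.90% in B46. The 2 CYP90A4 genes took 79.4%, 57.8% and 65.7% in A12 and 87.6%, 87.7% and 85.7% in B46. These shares are a description of the same values and carry no test.

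**Figure D3:**
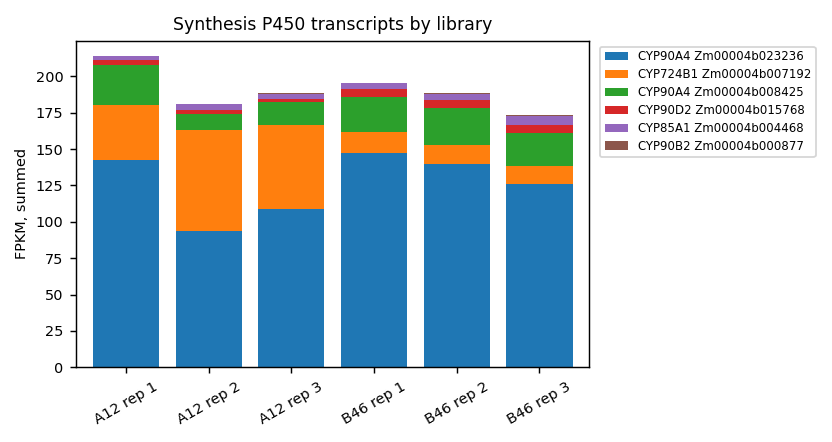
FPKM of the 6 tested synthesis P450 genes, stacked for each of the 6 libraries, A12 on the left and B46 on the right. Stacks are of like height, and CYP724B1 takes a larger part in each A12 library, up to 69.3 FPKM, than in any B46 library, where it is at most 14.4 FPKM.

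The entry reductase and the sterol decarboxylases and isomerases were next. DET2, the reductase at the entry to the pathway, has 2 gene models, and Zm00004b034831 had no reads. By domain annotation, only Zm00004b034831 holds the steroid reductase domain, and Zm00004b018445 holds no domain. Zm00004b018445 had 36.1, 28.9 and 28.7 CPM in A12 and 30.4, 32.6 and 30.9 CPM in B46 (log2 fold change -0.00, SE 0.12, adjusted p = 0.99 by edgeR). It overlaps a glucan phosphorylase gene on the opposite strand by 179 bases, and the sources used here do not say whether counting used strand. Of 9 genes for sterol decarboxylases and isomerases, which prepare the sterol skeleton, 4 were tested and 0 called by edgeR (1 at an unadjusted p under 0.05; 0 by DESeq2 or limma). The isomerase gene Zm00004b024739 had the largest difference of them, with 653, 456 and 492 reads in A12 and 477, 397 and 409 in B46 (log2 fold change 0.38, SE 0.16, adjusted p = 0.18 by edgeR). It overlaps a gene on the opposite strand that had 12 reads in all. Its model holds no annotated domain, and the 2 isomerase models that hold an emopamil binding domain had no reads. Zm00004b001751, a decarboxylase model, had 47, 8 and 40 reads in A12, a wide spread, and 26, 31 and 31 in B46.

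The receptors bind the hormone at the cell surface. All 4 genes with receptor names hold leucine-rich repeats and a protein kinase domain. Of the 3 tested, 0 rose, 1 fell and 2 were not called.

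The main receptor gene, BRI1 (Zm00004b019147, chromosome 3), stood at 53.6 ± 4.41 FPKM in A12 and 52.1 ± 4.81 FPKM in B46 (SD, n = 3). It had 2709, 2738 and 2519 reads in A12 against 2909, 2750 and 2451 in B46, with full overlap (log2 fold change 0.04, SE 0.11, adjusted p = 0.85 by edgeR). BRL3 (Zm00004b021330, chromosome 4, 68636340 to 68639966, minus strand) is a relative of BRI1, and in Arabidopsis its namesake acts mainly in vascular tissue. It had 109, 138 and 131 reads in A12 against 297, 294 and 398 in B46. Every A12 library lay below every B46 library. The means were 8.51 ± 1.09 CPM in A12 and 21.3 ± 3.84 CPM in B46 (SD, n = 3), and it fell by 1.32 on the log2 scale (SE 0.17, adjusted p = 0.0064 by edgeR). The call held in each of the 14 alternatives, with the largest adjusted p, 0.049, without A12 replicate 3.

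BRL1 (Zm00004b035620, chromosome 7), another relative, had a value in the opposite direction at a very low level. It had 28, 24 and 17 reads in A12 and 6, 12 and 5 in B46, without overlap (log2 fold change 1.64, SE 0.45, adjusted p = 0.062 by edgeR). BRL1 passed the filter on low counts only through the A12 libraries, where it is high, so its direction is not independent of the filter. On the per-length scale the order of the receptors was BRI1, BRL3, BRL1 in both lines, with BRL3 at 2.63 ± 0.332 FPKM in A12 and 6.59 ± 1.18 FPKM in B46, and BRL1 at 0.427 ± 0.115 and 0.135 ± 0.0651 FPKM. BRL2 (Zm00004b002347) had 0 reads in A12 and 1, 0 and 3 in B46 and was not tested.

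**Figure D4:**
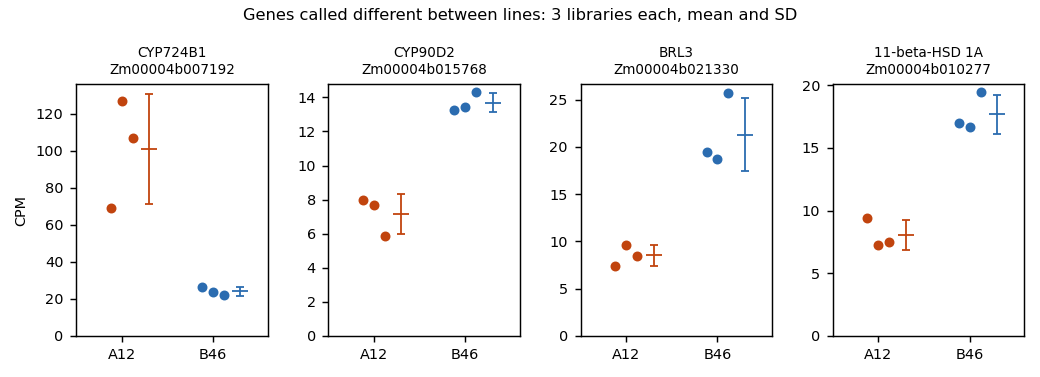
CPM in each library of the 4 genes called different, with the mean and SD of 3 libraries beside the points, A12 on the left and B46 on the right of each panel. CYP724B1 is higher in A12, at 68.9 to 127 CPM, and CYP90D2, BRL3 and the 11-beta-hydroxysteroid dehydrogenase are lower in A12 in every library.

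BSK kinases are phosphorylated by the activated receptor and pass the signal on. Of 11 genes, 9 were tested, at mean levels of 8.32 to 64.9 FPKM, and 0 were called by edgeR (2 at an unadjusted p under 0.05; 1 by DESeq2 and 0 by limma). Log2 fold changes lay between -0.48 and 0.36. The gene called by DESeq2, Zm00004b000254 (BSK1-2, chromosome 1), had 348, 347 and 338 reads in A12 and 413, 513 and 586 in B46, without overlap (log2 fold change -0.48, SE 0.14, adjusted p = 0.072 by edgeR). Most abundant was Zm00004b033256 (BSK2, chromosome 9), with 141, 240 and 211 CPM in A12 and 159, 154 and 150 CPM in B46 (log2 fold change 0.36, SE 0.18, adjusted p = 0.26 by edgeR). Its A12 replicate 1 lay below the B46 libraries and the other A12 libraries above them. Without A12 replicate 1 this gene was called higher (log2 fold change 0.55, adjusted p = 0.0065 by edgeR). In the same fit the BSK1-2 gene Zm00004b002020 was called lower (log2 fold change -0.57, adjusted p = 0.024 by edgeR).

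BZR1-type factors bind DNA and switch brassinosteroid-responsive genes on or off. Of 8 genes with these names, 7 hold the BES1/BZR1 domain. The exception, Zm00004b032660, holds no domain and is among those tested. The 4 tested ranged from 40.1 to 93.6 FPKM (mean of 6 libraries), among the higher levels of the pathway, and 0 were called by edgeR (1 at an unadjusted p under 0.05; 0 by DESeq2 and 0 of these 4 by limma).

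The highest, BZR1 homolog 2 (Zm00004b015757, chromosome 3), had 130, 162 and 164 CPM in A12 and 158, 153 and 122 CPM in B46 (log2 fold change 0.07, SE 0.14, adjusted p = 0.78 by edgeR). BZR1 homolog 3 (Zm00004b032660) and a gene annotated as BZR1 homolog 1 (Zm00004b009767) had log2 fold changes of -0.00 (SE 0.13) and 0.07 (SE 0.14; adjusted p = 0.99 and 0.79 by edgeR), and the lines overlapped in both. The other BZR1 homolog 1, Zm00004b037145, had 585, 560 and 650 reads in A12 and 723, 712 and 898 in B46, without overlap (log2 fold change -0.32, SE 0.12, adjusted p = 0.13 by edgeR). The SE of these log2 fold changes was 0.12 to 0.14. The difference of -0.32 in Zm00004b037145 was not called, so differences of that size can go undetected here.

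A further gene of this class stood outside the test. Zm00004b015942, annotated as BES1/BZR1 homolog 2 (chromosome 3, 11258024 to 11259002, plus strand), had 5, 14 and 8 reads in A12 and 0 in each B46 library. Set against a floor of 3 counts per B46 library, its mean CPM in A12 was 3.15-fold higher. The floor covers counting error in B46 only, not that of the A12 reads. The default filter removed this gene. With no filter edgeR called it (adjusted p = 0.036), when 7.06% of the 30915 genes tested were called, and so did limma on FPKM, when 8.49% were. With no filter, edgeR took every gene with a read in any library, and limma required the minimum mean FPKM. In both fits this gene entered only through A12, where it is high, so both calls had to go in this direction. The other 3 BZR1-type genes had 1 to 4 reads in all.

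The 4 genes annotated as BRH1, a RING-type protein whose Arabidopsis namesake responds to brassinosteroid, all hold a RING finger domain. None was called by edgeR, DESeq2 or limma (0 by edgeR at an unadjusted p under 0.05). In 3 of the 4 the highest A12 library was at least 2-fold above the lowest, while Zm00004b040061 had 1.15-fold between them. Zm00004b014716 (chromosome 5) had 299, 38 and 130 reads in A12 and 80, 130 and 308 in B46 (log2 fold change -0.09, SE 0.72, adjusted p = 0.95 by edgeR). Zm00004b022330 (chromosome 4) had 140, 22 and 45 reads in A12 and 24, 25 and 40 in B46 (log2 fold change 1.28, SE 0.65, adjusted p = 0.25 by edgeR). In all 4, A12 replicate 1 was the highest library of its line in CPM.

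This order was seen more widely. A12 replicate 1 was the highest A12 library in 23 of the 41 tested genes, against 41.5% of all genes tested. A12 replicates 1 and 2 were at least 2-fold apart in 6 of the 41, all 6 higher in replicate 1, against 10.3% of all genes tested in either direction. The 6 are 3 of the BRH1 genes, the CYP90A4 gene Zm00004b008425, the BSK1-2 gene Zm00004b002020 and the decarboxylase Zm00004b001751. CYP724B1 went the other way, 1.84-fold higher in its highest A12 library, replicate 2, than in replicate 1. A12 replicate 1 also had the highest and replicate 2 the lowest summed levels of MADS-box and green tissue genes in that line, and replicate 1 had its lowest summed level of meristem markers (1103 CPM). The part of tissue make-up in these differences was not tested. The median ratio of the highest to the lowest library was 1.29 in A12 and 1.21 in B46 for the 41 genes, and 1.33 in A12 and 1.22 in B46 for all genes tested.

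Genes with a steroid name beyond the core pathway included the last of the called genes. Of 7 genes annotated as 11-beta-hydroxysteroid dehydrogenases, short-chain dehydrogenases that in plants are known from seed oil bodies, 1 was tested and fell, 3 had no reads, and 3 had 2 to 91 reads in all. Zm00004b010277 (chromosome 2, 229008892 to 229013061, plus strand) had 138, 104 and 116 reads in A12 against 259, 261 and 301 in B46, without overlap. It averaged 8.06 ± 1.18 CPM in A12 and 17.7 ± 1.54 CPM in B46 (SD, n = 3) and fell by 1.13 on the log2 scale (SE 0.15, adjusted p = 0.0072 by edgeR). Without A12 replicate 3 the adjusted p was 0.054. Zm00004b020538, below the filter, had 44, 6 and 19 reads in A12 and 10, 3 and 9 in B46.

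All 7 steroid-binding proteins were tested, and 6 of them hold a cytochrome b5-like domain. None was called by edgeR (1 at an unadjusted p under 0.05; 1 by DESeq2 and 0 by limma). The gene called by DESeq2, Zm00004b014517 on chromosome 5, had 31, 54 and 63 reads in A12 and 10, 17 and 24 in B46, without overlap (log2 fold change 1.59, SE 0.41, adjusted p = 0.053 by edgeR). It passed the filter on low counts only through the A12 libraries, where it is high, so its direction is not independent of the filter. The most abundant, Zm00004b003951 (chromosome 1), stood at 133 ± 6.38 FPKM in A12 and 125 ± 9.55 FPKM in B46 (log2 fold change 0.08, SE 0.10, adjusted p = 0.63 by edgeR). Its neighbour Zm00004b003952 has the same annotation, so their reads may have been divided between them. Zm00004b015357 had 686, 607 and 687 reads in A12 and 453, 446 and 766 in B46, where replicate 3 stood apart (log2 fold change 0.31, SE 0.21, adjusted p = 0.39 by edgeR). The 2 genes for BPG2, a chloroplast GTPase, had log2 fold changes of 0.20 (SE 0.15) and -0.07 (SE 0.16; adjusted p = 0.45 and 0.83 by edgeR). The 2 genes named after the foxglove steroid 5-beta-reductase had 0, 1 and 0 reads in A12 and 0, 0 and 2 in B46 (Zm00004b001861) and none at all (Zm00004b001862).

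By position, the 4 called genes lie on chromosomes 2, 3, 4 and 2, outside the chromosome on which the lines are stated to differ. Among the 5 nearest tested genes on each side, 2 of 10 were called around CYP724B1 and 0 of 10 around each of CYP90D2, BRL3 and Zm00004b010277. On chromosome 5 lie 8 of the 67 genes, of which 5 were tested and 0 called by edgeR (1 at an unadjusted p under 0.05; 1 by DESeq2 and 0 by limma). BES1/BZR1 homolog 4 (Zm00004b013584, 150773958 to 150775775) had 0 reads in A12 and 0, 1 and 3 in B46, and the dehydrogenase Zm00004b013872 (167749591 to 167752600) had none. In the first 5 Mb lies a BSK5 gene (Zm00004b010938, 2010713 to 2016108), with 913, 804 and 850 reads in A12 and 1024, 879 and 713 in B46 (log2 fold change 0.04, SE 0.14, adjusted p = 0.90 by edgeR). Coordinates are those of the count table, whose genome build the sources used here do not name.

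Genes of the pathway outside the annotation rule were taken from 4 lists by name, 110 in all. Of 63 tested, 2 rose and 5 fell, near the background share, with a median log2 fold change of 0.10 against 0.01 over all genes tested. Of all genes each tool tested, edgeR called 9.86%, DESeq2 15.4% and limma 8.49%. An unadjusted p under 0.05 by edgeR was reached by 27.2%.

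Among 19 tested genes of sterol synthesis, 2 rose, 1 fell and 16 were not called by edgeR (DESeq2 called 5 and limma 3). The gene that fell is annotated as cycloartenol C-24-methyltransferase 1, the enzyme that starts the plant-specific side chain (Zm00004b011033, chromosome 5, 3598013 to 3616284). It had 396, 454 and 381 reads in A12 against 1264, 1339 and 1213 in B46 (log2 fold change -1.56, SE 0.11, adjusted p = 0.00077 by edgeR). This gene lies in the first 5 Mb of chromosome 5, where 6 of its 10 nearest tested genes were called, all 6 higher in A12. A second gene with the same annotation, Zm00004b035064 on chromosome 7, had 3393, 2767 and 2962 reads in A12 and 2268, 2238 and 2578 in B46 (log2 fold change 0.43, SE 0.11, adjusted p = 0.056 by edgeR), and DESeq2 called it. The 2 that rose are unnamed transcript models on chromosome 3, both annotated as sterol 14-demethylase. The larger had 411, 345 and 379 reads in A12 and 204, 229 and 271 in B46 (log2 fold change 0.75, SE 0.14, adjusted p = 0.019 by edgeR). The smaller had 29, 36 and 21 reads in A12 and 2, 2 and 0 in B46 (edgeR adjusted p = 0.0097), and it passed the filter on low counts only through the A12 libraries.

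Among 30 tested signalling genes, 0 rose, 4 fell and 26 were not called by edgeR (10 at an unadjusted p under 0.05; DESeq2 called 7 and limma 4). For all genes tested, the edgeR shares were 4.61% higher and 5.25% lower in A12. Zm00004b029197 was called by DESeq2 and limma but not by edgeR. Of the 4 that fell, 2 are GSK3-type kinases, which phosphorylate and restrain BZR1-type factors. Both belong to the 11 tested kinases of this type named Shaggy-related, of which 5 had log2 fold changes above 0. The 2 tested kinases named glycogen synthase kinase-3 were not called. The kinase annotated as theta (Zm00004b001928, chromosome 1) had 1405, 1307 and 1357 reads in A12 and 1951, 1795 and 1861 in B46 (log2 fold change -0.40, SE 0.09, adjusted p = 0.032 by edgeR). The kinase annotated as GSK4 (Zm00004b013545) had 872, 1160 and 1123 reads in A12 and 1505, 1540 and 1581 in B46 (log2 fold change -0.49, SE 0.12, adjusted p = 0.048 by edgeR). limma on FPKM did not call it. The gene lies on chromosome 5 from 148765026 to 148771316, and 5 of its 10 nearest tested genes were called, all lower in A12. An unnamed transcript model annotated as BSL2, a phosphatase of the BSU1 family that acts on those kinases, had 1153, 1130 and 1293 reads in A12 and 2076, 2207 and 1894 in B46 (log2 fold change -0.73, SE 0.09, adjusted p = 0.0056 by edgeR). The fourth encodes GF14-A (Zm00004b003400), of the 14-3-3 proteins that hold phosphorylated BZR1 factors in the cytoplasm, with 51, 46 and 73 reads in A12 and 126, 117 and 121 in B46 (log2 fold change -1.04, SE 0.21, adjusted p = 0.025 by edgeR). Of 6 tested BSL genes, 1 fell and 4 had log2 fold changes above 0. Of 11 tested genes named 14-3-3, 1 fell and 8 had log2 fold changes above 0.

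Of 5 tested genes of the CYP734A class, which inactivates brassinosteroids, 0 were called by edgeR (1 at an unadjusted p under 0.05; 0 by DESeq2 or limma), with log2 fold changes of -0.48 to 1.10. Of 9 tested response factors, 0 were called by edgeR (3 at an unadjusted p under 0.05; 1 by DESeq2 and 0 by limma). DESeq2 called the IBH1-like gene Zm00004b033117, with 4, 10 and 10 reads in A12 and 17, 29 and 87 in B46 (log2 fold change -2.39, SE 0.70, adjusted p = 0.074 by edgeR). This gene passed the filter on low counts only through the B46 libraries, where it is high.

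**Figure D5:**
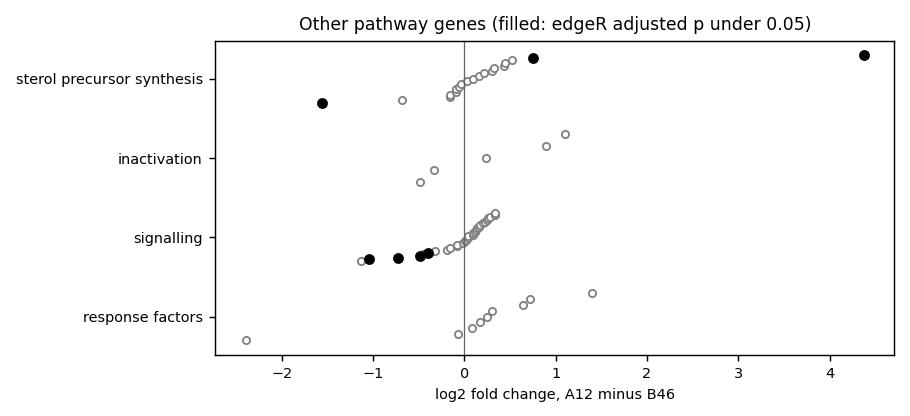
Log2 fold change (A12 minus B46) of the 63 tested pathway genes outside the annotation rule, by list, with genes sorted within a list. The filled points are the 7 called genes: 3 in sterol precursor synthesis, of which 2 lie above 0, and 4 in signalling, all below 0.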

How the data were processed

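Raw counts were deposited for every gene with no normalization, beside FPKM values the authors made for the same libraries; per the file headers each column is 1 library. The submitters' processing notes list HISAT2 2.0.5 and DESeq2 1.20.0, and the sources used here do not give the read counter, strand use, build or annotation. The files' gene length column, as deposited, is in bases, and other annotation columns gave names and domains. The supplied RefSeq gene table matched 0 identifiers, so no sequences are shown.

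The main test was run with edgeR 4.0.16 under R 4.3.3: default expression filter (22741 genes), TMM scaling, two-sided quasi-likelihood F-test without covariates, Benjamini-Hochberg adjustment over all genes tested, called at an adjusted p under 0.05. SE is the log2 fold change over the root of F. Floors are 3 counts per library. Reads carry no molecular identifiers, so counting error understates the total error. Replicate numbers came from the titles; libraries are separate pools, and p-values measure the spread between pools. Alternatives were DESeq2 1.42.0, limma 3.58.1 on log2(FPKM + 0.1) and log2(FPKM + 1) for genes with a mean FPKM of at least 0.5, other scalings and filters, a replicate block, and leaving out each library. The procedure was tested on simulated data. Named genes were the called members, all synthesis P450, receptor and BZR1-type members, the most abundant member of each other role and the called genes of the other pathway lists; further members and list genes were added after their values were seen. Members and lists were chosen with earlier results of these data known.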

Additional observations from a re-analysis of the deposited data

How the results depend on the processing

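The 4 called genes kept their direction in every alternative, and CYP724B1 and BRL3 also kept their calls. The number of the 67 genes called higher in A12, 1 in the main test, was 2 with DESeq2, with no filter and with limma at either pseudocount, and 1 to 3 when a library was left out. With no filter and with limma, the added gene was Zm00004b015942, which entered those fits only through A12. With DESeq2 it was Zm00004b014517, which passed the filter on low counts only through A12. The number called lower, 3 in the main test, was 1 to 6 when a library was left out. Over all genes, those higher in A12 numbered 1048 in the main test, 1738 with DESeq2 and 182 to 2397 when a library was left out, and those lower numbered 1194 and 216 to 2049. With the replicate number as a block, 430 genes were higher and 537 lower, and 3 of the 67 were called, CYP90D2 being lost. Deviations of same-numbered libraries from their line means had correlations of -0.12, -0.0136 and 0.00541. No shared pattern by number was seen, but 3 libraries per line are too few to exclude pairing. The cause of these changes was not tested. With library totals as the scale, 3 uncalled genes changed sign, to log2 fold changes of -0.0081 for BRI1, -0.010 for Zm00004b010938 and -0.023 for Zm00004b040598. The uncalled Zm00004b001751 stood at -0.047 with the block and -0.13 with limma at the smaller pseudocount. When a library was left out, the log2 fold changes of 15 uncalled genes had either sign. They were -0.12 to 0.054 for Zm00004b018445, -0.25 to 0.61 for Zm00004b001751, -0.028 to 0.11 for BRI1, -0.093 to 0.18 for Zm00004b010938, -0.20 to 0.093 for Zm00004b034422, -0.033 to 0.057 for Zm00004b040598 and -0.57 to 0.088 for Zm00004b002020. For BZR1-type genes they were -0.034 to 0.18 (Zm00004b015757), -0.05 to 0.18 (Zm00004b009767) and -0.11 to 0.071 (Zm00004b032660). For BRH1 genes they were -0.999 to 0.63 (Zm00004b014716), -0.49 to 0.12 (Zm00004b006538) and -0.17 to 0.13 (Zm00004b040061). The last were -0.17 to 0.039 for Zm00004b023190 and -0.087 to 0.10 for Zm00004b001378. Depth as a limit on single genes was not tested.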
